A study of Homo sapiens with 8 samples.

Results

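BCL2 family genes encode the proteins that set whether the outer mitochondrial membrane stays sealed or is opened during apoptosis. The 10 genes described here were chosen by symbol, through their Entrez gene IDs, from the 27936 genes of the count tables. They comprise 7 BH3-only genes (PMAIP1, BID, BCL2L11, BMF, BIK, HRK and BAD) and 3 anti-death genes (BCL2, BCL2L1 and MCL1). BAX and BBC3 were left out of the set by that choice and are counted below among the other genes of the pathway.

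Anti-death members hold the pore-forming proteins BAX and BAK in check. BH3-only proteins carry a short helix, the BH3 domain, that fits a groove on the anti-death members and thereby frees, or directly activates, the pore formers. Some BH3-only proteins bind nearly every anti-death member and others are selective: NOXA, the product of PMAIP1, binds chiefly MCL1, while BAD binds BCL2 and BCL-xL, the product of BCL2L1. Several of these proteins are also controlled after transcription, by cleavage, phosphorylation or rapid degradation, so that transcript levels describe only part of their activity.

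The libraries came from HEK293, an established human line of embryonic kidney origin, in which TIP60, the lysine acetyltransferase encoded by KAT5, had been targeted. There were 4 libraries labelled TIP60 knock-out (KO; genotype label HEKg1/C9) and 4 labelled control (genotype label HEKg1), with 2 libraries per arm labelled sgRNA1 and 2 labelled sgRNA2. All 8 samples received doxycycline at 1 µg/ml for 3 days, which induced the single guide RNAs. The labels explain neither the genotype codes nor the guides' targets in control cells, and they do not say whether a line is 1 clone or whether replicates were separate cultures, so the p-values measure only the spread between these libraries.

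Total counts per library ranged from 3723992 to 18841774, the shallowest being control sgRNA1 replicate 2. Normalised read counts are given as CPM, counts scaled to the library size with TMM factors. KAT5 had 18.6, 18.3, 20.2 and 18.0 CPM in the KO libraries and 48.2, 45.5, 44.5 and 49.0 in the control libraries, each in the order sgRNA1 replicates 1 and 2, sgRNA2 replicates 1 and 2. Its log2 fold change was -1.32 ± 0.064 (SE, edgeR adjusted p = 6.71e-13), and 38.6% of the exonic bases of KAT5 lie opposite exons of RNASEH2C. The HEK293 marker genes, led by the neurofilament gene NEFM, summed to 14200 to 15400 CPM in KO and 9260 to 11000 in the controls (two-sided exact permutation p = 0.0286, 4 libraries against 4, the smallest this design allows), and NEFM alone had means of 12400 and 8380. The 6 genes of that list did not move together: NEFM, NEFL and KRT8 were called higher, VIM was called lower (-0.30 ± 0.046, SE, edgeR adjusted p = 9.07e-06), and KRT18 (0.03 ± 0.052, adjusted p = 0.593) and the renal transcription factor PAX2, with a mean under 1 CPM in both arms, were not called. Sums over 5 endothelial markers were 2.91 to 4.21 CPM in KO and 0 to 0.404 in control libraries, and sums over 5 leukocyte markers were 1.40 to 2.04 and 0.566 to 1.08 (exact permutation p = 0.0286 for each). The 5 hepatocyte markers summed to 0.366 to 0.668 and 0 to 0.069 (exact permutation p = 0.0286), and the 5 fibroblast markers to 24.2 to 28.2 and 18.6 to 29 (exact permutation p = 0.229). CDH5, TEK, CD3E, DCN, LUM, ALB, TTR and AHSG had no count in any control library. Over the 4 KO libraries these genes had, in that order, only 15, 14, 5, 1, 5, 11, 3 and 7 counts. Total counts were 13325415 to 18841774 in KO and 3723992 to 14601552 in control libraries. SERPINA1 had no count in any library. The part of these markers in the results below was not tested. In bulk RNA, fewer cells of a kind and less transcript per cell cannot be told apart.

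All 10 members passed the filter on low counts, and 7 of them differed between KO and control cells. PMAIP1, BIK, BCL2L11 and MCL1 rose and BID, HRK and BAD fell, so that both the pro-death and the anti-death side held a gene that rose. BMF, BCL2 and BCL2L1 did not pass the test. Calls were made at a Benjamini-Hochberg adjusted p under 0.05 over all 14455 genes tested, with edgeR's quasi-likelihood test and a term for the guide number. Of all genes tested, 31.8% were called higher and 31.2% lower, together 63.0%, so that 7 of 10 members called is a share near that of genes in general. The members' median log2 fold change was 0.03, beside 0.007 over all genes tested. For the same 7 members the 4 KO and the 4 control libraries did not overlap in CPM, which held for 52.9% of all genes tested (27.3% with KO higher, where 4 members stood, and 25.6% with KO lower, where 3 stood).

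**Figure D1:**
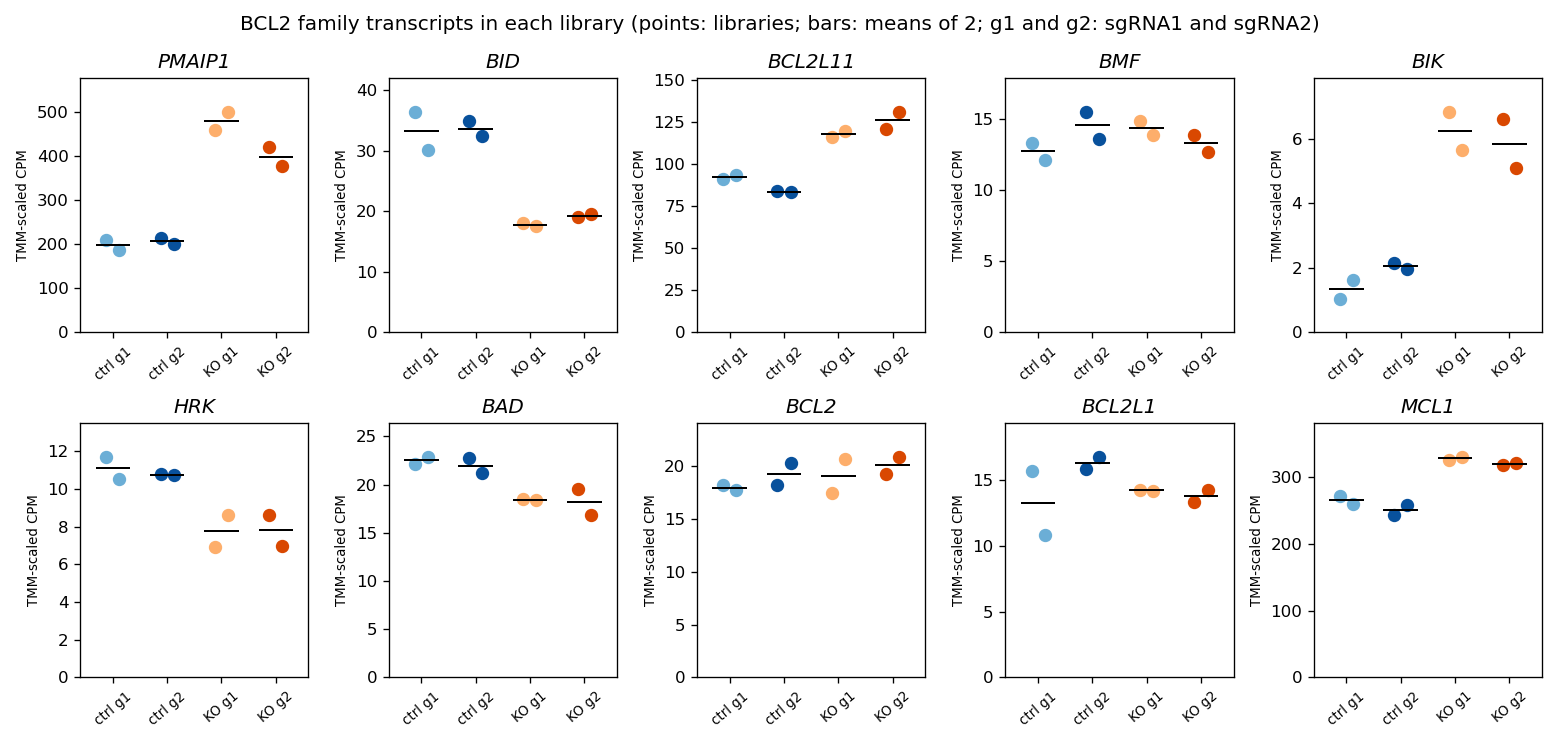
Normalised read counts (TMM-scaled CPM, linear axes from 0) of the 10 members in each of the 8 libraries, as points, with the mean of each pair of libraries as a bar. The KO libraries lie above all control libraries for PMAIP1, BCL2L11, BIK and MCL1, below them for BID, HRK and BAD, and among them for BMF, BCL2 and BCL2L1.

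PMAIP1 (gene ID 5366, chromosome 18, 59899996 to 59904305, GRCh38) encodes NOXA, a small BH3-only protein that engages MCL1 and is turned over quickly. It was measured at 459.3 and 501.0 CPM in the sgRNA1 KO libraries and at 419.5 and 378.0 in the sgRNA2 KO libraries. Control libraries had 210.0 and 188.1 CPM with sgRNA1 and 213.9 and 200.2 with sgRNA2. Every KO library therefore lay well above every control library, and within the KO arm the sgRNA1 pair was the higher. The mean went from 203 ± 11.5 (SD, n = 4) to 439 ± 52.8 CPM, a log2 fold change of 1.09 ± 0.061 (SE, edgeR adjusted p = 4.56e-12).

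BIK (gene ID 638, chromosome 22, 43110750 to 43129712), whose product is a BH3-only protein of the endoplasmic reticulum membrane, showed the largest fold change of the members and rested on the fewest reads. The KO libraries had 6.84 and 5.64 CPM with sgRNA1 and 6.59 and 5.10 with sgRNA2. The control libraries had 1.05 and 1.62 CPM with sgRNA1 and 2.14 and 1.95 with sgRNA2, from 13, 6, 31 and 24 counts. No control library reached the lowest KO library. The log2 fold change was 1.82 ± 0.20 (SE, edgeR adjusted p = 1.04e-07), from 1.69 ± 0.478 to 6.04 ± 0.811 CPM (SD, n = 4).

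BCL2L11 (gene ID 10018, chromosome 2, 111120914 to 111168445) encodes BIM, which binds all anti-death members and can activate BAX directly. Its level was 116 and 120 CPM in the sgRNA1 KO libraries and 121.3 and 131.4 in the sgRNA2 KO libraries. The controls had 91.3 and 93.5 CPM with sgRNA1 and 84.4 and 83.3 with sgRNA2. The arms were separate, by less than for PMAIP1, with a log2 fold change of 0.48 ± 0.052 (SE, edgeR adjusted p = 8.2e-08). In the annotation, 10.9% of the exonic bases of BCL2L11 lie opposite MIR4435-2HG, a long non-coding RNA whose own change was 0.30 ± 0.30 (adjusted p = 0.400).

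BID (gene ID 637, chromosome 22, 17734138 to 17774665) links death receptors to mitochondria, since caspase cleavage turns its product into the active fragment tBID. Its transcript showed the largest fall. The KO libraries had 18.1 and 17.5 CPM with sgRNA1 and 19.0 and 19.5 with sgRNA2. The control libraries had 36.5 and 30.2 CPM with sgRNA1 and 34.9 and 32.5 with sgRNA2. All KO libraries lay far below the lowest control and close to each other. The mean of the KO libraries, 18.6 ± 0.901 CPM (SD, n = 4), was 55.3% of the control mean, with a log2 fold change of -0.87 ± 0.071 (SE, edgeR adjusted p = 1.41e-09).

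To show the sequence around the start of members that moved in opposite directions, the 250 bases before the RefSeq start (GRCh38.p14) are given for PMAIP1 (chr18:59899746-59899995, plus strand) and BCL2L11 (chr2:111120664-111120913, plus strand), which rose, and for BID (chr22:17774470-17774719, minus strand, the first of 5 starts listed), which fell. They read 5′ to 3′, with the GC box GGGCGG in capitals on either strand, and also with the CGTCA core of the cyclic AMP response element (CRE) in PMAIP1 and the FOXO motif TGTTTAC, read on the other strand, in BCL2L11.
PMAIP1: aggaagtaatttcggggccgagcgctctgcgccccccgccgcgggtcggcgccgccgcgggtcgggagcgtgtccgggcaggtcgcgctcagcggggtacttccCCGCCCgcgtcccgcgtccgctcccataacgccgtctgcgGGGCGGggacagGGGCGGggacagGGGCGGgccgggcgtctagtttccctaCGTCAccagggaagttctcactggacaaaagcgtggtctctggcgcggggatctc
BCL2L11: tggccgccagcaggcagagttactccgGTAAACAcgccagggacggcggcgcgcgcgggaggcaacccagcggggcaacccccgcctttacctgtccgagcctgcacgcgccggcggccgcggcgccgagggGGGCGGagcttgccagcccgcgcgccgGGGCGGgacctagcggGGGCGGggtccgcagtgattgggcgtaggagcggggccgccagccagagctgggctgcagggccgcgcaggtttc
BID: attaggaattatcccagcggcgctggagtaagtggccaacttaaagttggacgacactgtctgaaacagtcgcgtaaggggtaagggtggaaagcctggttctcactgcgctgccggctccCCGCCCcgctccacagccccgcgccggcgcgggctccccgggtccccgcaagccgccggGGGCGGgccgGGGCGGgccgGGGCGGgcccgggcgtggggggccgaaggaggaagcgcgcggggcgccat

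The printed stretches of PMAIP1 and BID each held 4 GC boxes and that of BCL2L11 held 3. Most of the BID stretch lies inside the span of the gene given above, since this start is not the outermost. Of the 5 promoters of BID, 4 held a GC box between 250 bases before and 50 bases after the start, as did 45.0% of all promoters. The boxes at -129, -70, -60 and -50 in the first promoter kept their spacing in another (-103, -44, -34 and -24). They may therefore be the same sites seen from 2 starts. Of 35116 RefSeq promoters, 7.63% held at least 4 in these 250 bases and 13.9% at least 3. GC content was 72.8%, 72.0% and 76.8%, against a median of 58.0%. Thus the same motif was repeated before the first listed start of a gene that fell and before genes that rose. Further letter patterns were searched on both strands, from 250 bases before to 50 bases after the start: the full CRE (TGACGTCA, in 1.85% of promoters), AP-1 (TGANTCA, 7.71%), C/EBP-ATF (TGATGCAA, 0.866%), E2F (TTTNGCGC, 1.79%), FOXO (TGTTTAC, 3.42%), CCAAT (34.6%), the E-box (CACGTG, 7.26%) and STAT (TTCNNNGAA, 7.66%). The CGTCA core, which the full CRE contains, was in 24.6% of all promoters. At least 1 promoter of 6 of the 8 members searched held it (BIK and MCL1 were not searched). This count is by gene, with 1 to 5 promoters each, and cannot be set beside the share by promoter. BMF and BCL2L1 each held the core in 1 of 2 promoters and BID in 0 of 5. The core stood at position -55 from the start of PMAIP1, which rose, before HRK (-16) and BAD (-54 and -93 in its 2 promoters), which fell, and before BMF (-57), BCL2 (-225) and BCL2L1 (-201), which were not called. CCAAT was found before BCL2L11 (-58), BAD (-37 and -76) and BMF (-75). The GC box (-99 and -138), CGTCA and CCAAT matches of BAD kept the same spacing in its 2 promoters. Each such pair may therefore be 1 site seen from 2 starts. The FOXO letters were found in BCL2L11 alone, at -223, among these 8 members. The E2F letters were in 1 of the 2 promoters of BCL2L1 and the E-box in 2 of the 5 of BID (-106 and -47). In these 2 promoters a GC box (-197 and -138) kept the same spacing from the E-box, so each pair may be 1 site. None of the promoters of these 8 members held the full CRE, AP-1, C/EBP-ATF or STAT letters in this window. A match is a description of the letters only.

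HRK (gene ID 8739, chromosome 12, 116856144 to 116881441), a BH3-only gene known from neurons deprived of growth factor, had 6.89 and 8.62 CPM in the sgRNA1 KO libraries and 8.63 and 6.95 in the sgRNA2 KO libraries. The controls had 11.7 and 10.5 CPM with sgRNA1 and 10.8 and 10.7 with sgRNA2. The arms did not overlap, and the KO libraries were spread more widely than the controls. The log2 fold change was -0.50 ± 0.11 (SE, edgeR adjusted p = 5.49e-04).

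BAD (gene ID 572, chromosome 11, 64269828 to 64284704), whose product is held inactive when survival kinases phosphorylate it, showed the smallest called change. Its KO libraries had 18.5 and 18.3 CPM with sgRNA1 and 19.5 and 16.8 with sgRNA2. Its control libraries had 22.1 and 22.9 CPM with sgRNA1 and 22.8 and 21.2 with sgRNA2. The gap between the arms was narrow, and the log2 fold change was -0.27 ± 0.075 (SE, edgeR adjusted p = 0.00322). With all libraries thinned to the smallest total the change was -0.07 and not called (adjusted p = 0.714). Over 10 further draws of the thinning, added after seeing the data, it lay between -0.37 and -0.11 and was called in 3. HRK was called in 7 of those draws and PMAIP1, BIK, BCL2L11, BID and MCL1 in all 10. Exons of BAD lie opposite GPR137 over 23.6% of their bases, and GPR137 itself fell (-0.23 ± 0.068, adjusted p = 0.00594).

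BMF (gene ID 90427, chromosome 15, 40087890 to 40108879) is a BH3-only gene whose product is tethered to the actin-based motor complex in attached cells. Its CPM ranged from 12.7 to 14.9 in KO and from 12.1 to 15.5 in control libraries, so the arms overlapped throughout. The log2 fold change was -0.01 ± 0.093 (SE), with a 95% interval from -0.20 to 0.19 (edgeR adjusted p = 0.941).

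Among the anti-death genes, MCL1 (gene ID 4170, chromosome 1, 150574558 to 150579610), which encodes a short-lived guard of the mitochondrial membrane, had 324.8 and 330.4 CPM in the sgRNA1 KO libraries and 318.3 and 320.7 in the sgRNA2 KO libraries. The control libraries had 271.7 and 258.9 CPM with sgRNA1 and 243.1 and 258.4 with sgRNA2. All KO libraries were above all controls and lay within a narrow band. The rise was small and precisely measured, with a log2 fold change of 0.33 ± 0.041 (SE, edgeR adjusted p = 8.58e-07).

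BCL2 (gene ID 596, chromosome 18, 63123346 to 63320090), the founding member of the family, ranged from 17.5 to 20.9 CPM in KO and from 17.8 to 20.3 in control libraries. The log2 fold change of BCL2 was 0.07 ± 0.080 (SE), with a 95% interval from -0.10 to 0.23 (edgeR adjusted p = 0.489).

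BCL2L1 (gene ID 598, chromosome 20, 31664452 to 31723963) gives rise by splicing to the anti-death BCL-xL and the pro-death BCL-xS, which gene counts cannot separate. Its KO libraries had 14.3 and 14.2 CPM with sgRNA1 and 13.3 and 14.2 with sgRNA2, and its control libraries 15.7 and 10.8 with sgRNA1 and 15.8 and 16.8 with sgRNA2. The KO libraries thus lay below 3 of the controls and above the remaining one, control sgRNA1 replicate 2, which held 40 counts of the gene. With all libraries the log2 fold change was -0.14 ± 0.095 (SE), with a 95% interval from -0.34 to 0.06 (edgeR adjusted p = 0.206). Without that library it was -0.21 (adjusted p = 0.0310). In the annotation, 43.0% of the exonic bases of BCL2L1 lie opposite the antisense gene ABALON, which was not analysed here.

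Both guide numbers gave the same direction for each of the 7 called members. With sgRNA1, 4 members were called higher and 2 lower, beside 24.3% and 23.3% of all genes tested (47.6% in all). With sgRNA2, 4 were called higher and 3 lower, beside 25.7% and 25.4% (51.2% in all). PMAIP1 changed by 1.26 ± 0.075 (SE) with sgRNA1 and 0.95 ± 0.072 with sgRNA2. BCL2L11 changed by 0.36 ± 0.068 and 0.59 ± 0.063. BIK changed by 2.40 ± 0.31 and 1.52 ± 0.23, and BID by -0.95 ± 0.11 and -0.81 ± 0.095. MCL1 changed by 0.30 ± 0.061 and 0.35 ± 0.059, the closest pair among the 4 members that rose. HRK changed by -0.57 ± 0.17 and -0.45 ± 0.15, called in each (adjusted p = 0.0107 and 0.0173). BAD changed by -0.28 ± 0.12 (adjusted p = 0.0526) and -0.27 ± 0.10 (adjusted p = 0.0344). Within a guide the falls of HRK and BAD were less secure, since DESeq2 called 1 member lower with each guide. That member was BID.

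**Figure D2:**
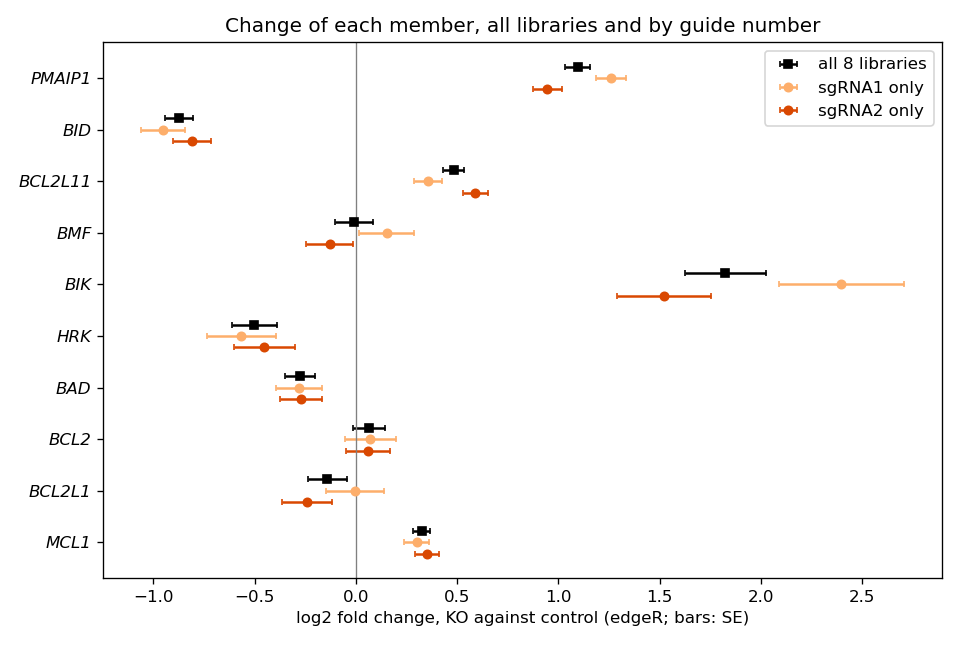
Log2 fold change of KO against control for each member (x axis), from all 8 libraries (squares) and within sgRNA1 and sgRNA2 (circles), with bars for the SE of the edgeR fit. BIK and PMAIP1 lie farthest to the right and BID farthest to the left, and the guides lie on either side of 0 only for BMF.

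The difference between the guides was itself tested and was called for 0 of 10 members and 0 of all 14455 genes by edgeR (0.00% of genes), and for 0 members by DESeq2. At an unadjusted p under 0.05 it held for 2 members and for 638 of the 14455 genes. PMAIP1 differed by -0.31 ± 0.10 (SE, unadjusted p = 0.0073, edgeR adjusted p = 1), and BCL2L11 by 0.23 ± 0.093 (unadjusted p = 0.0216, adjusted p = 1). The estimates thus ran in opposite directions, with a larger rise of PMAIP1 under sgRNA1 and of BCL2L11 under sgRNA2. For BIK the difference was -0.88 ± 0.43, with a 95% interval from -1.78 to 0.02. The estimates of BIK and BCL2L11 moved with the processing: that of BIK was -0.44 without control sgRNA1 replicate 1 and -0.19 after thinning to the smallest library, and that of BCL2L11 was 0.11 after thinning, while that of PMAIP1 ranged from -0.41 to -0.24 over all alternatives run. Between the 2 control lines, edgeR called 0 of 10 members (0.0277% of all genes, 0.00692% higher and 0.0208% lower with sgRNA2). There, 0 members and 1191 of the 14455 genes had an unadjusted p under 0.05. Between the 2 KO lines edgeR called 0 of 10 (0.00% of all genes). An unadjusted p under 0.05 was found for 1 member and for 613 of the 14455 genes. That member was PMAIP1, with -0.27 ± 0.070 for sgRNA2 against sgRNA1 (edgeR adjusted p = 0.993).

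Levels of different genes were compared as CPM per kilobase of the deposited gene length, which may differ from the length of the transcripts present. On this scale PMAIP1 was the most abundant member in control cells (105 ± 5.97, SD, n = 4) and MCL1, its main partner, the next (63.2 ± 2.87). BAD (18.2), BID (12.6), BCL2L11 (9.13), HRK (5.95), BCL2L1 (4.92), BMF (2.77), BCL2 (2.40) and BIK (1.77) followed. In that order only BMF and BCL2 had overlapping ranges between neighbours. MCL1 made up 88.5 to 91.5% of the summed level of the 3 anti-death genes of the set in control and 91.3 to 91.9% in KO libraries. That sum leaves out BCL2L2, another anti-death gene, with means of 5.46 CPM per kilobase in control and 3.47 in KO libraries.

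In KO cells PMAIP1 (227 ± 27.2 CPM per kilobase) and MCL1 (79.2 ± 1.29) again stood first, followed by BAD (14.9). BCL2L11 (12.7) moved above BID (6.97), and BIK (6.34) moved from the last place to just below BID, with which its range overlapped. The ranges of BCL2L1 (4.67) and HRK (4.23), and those of BMF (2.81) and BCL2 (2.53), overlapped as well. PMAIP1 made up 80.8 to 84.5% of the summed level of the 7 BH3-only genes of the set in KO libraries and 66.2 to 68.1% in control libraries. That sum leaves out the BH3-only gene BBC3, with means of 8.01 CPM per kilobase in KO and 10.3 in control libraries. Per length there were 2.49 to 3.20 units of PMAIP1 transcript for each unit of MCL1 in KO and 1.53 to 1.86 in control libraries. These ratios are combinations of the changes given above and were not tested. Without the division by length, MCL1 ranked first and PMAIP1 next in control cells.

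**Figure D3:**
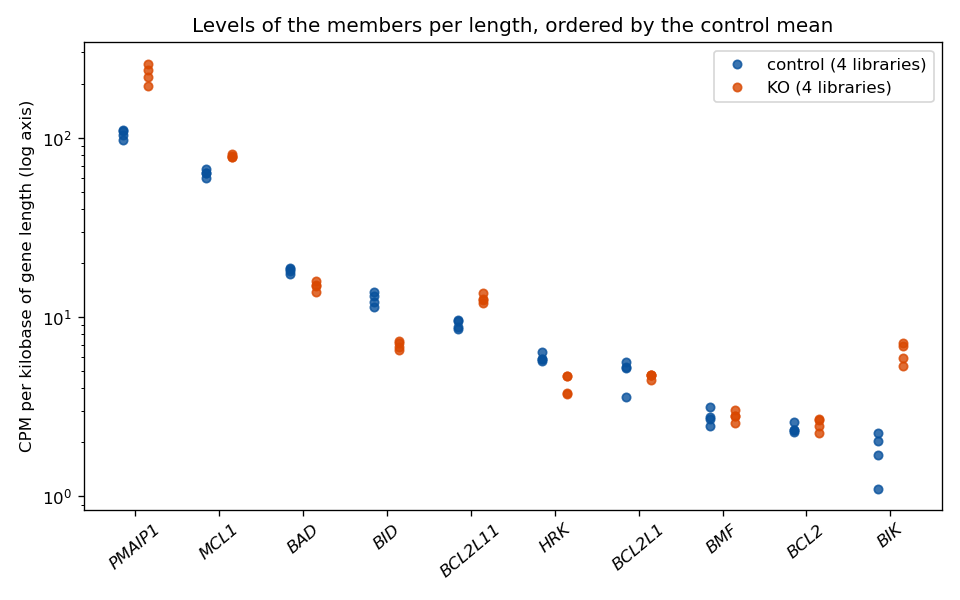
CPM per kilobase of gene length (log axis) of each member in the 4 control and the 4 KO libraries, as points, ordered by the control mean. PMAIP1 and MCL1 lie above all other members in both arms, and the points of BIK move from 1.10 to 2.25 in control to 5.35 to 7.17 in KO libraries.

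The other genes of the pathway were counted in 4 lists. Of 12 other BCL2 family genes, 8 passed the filter, and of these 1 was higher, 5 were lower and 2 were not called, with a median log2 fold change of -0.31. Over all genes tested, the shares to set beside the counts of each list were 31.8% higher and 31.2% lower (63.0% in all), with a median of 0.007. The pore former BAX fell from 94.9 ± 4.07 to 67.4 ± 2.33 CPM (SD, n = 4), a log2 fold change of -0.49 ± 0.045 (SE). BCL2L2, the gene of the anti-death protein BCL-w, fell by 0.69 on the log2 scale, from 17.5 to 21.0 CPM in control to 11.8 to 14.3 CPM in KO libraries, and 19.4% of its exonic bases belong also to the read-through gene BCL2L2-PABPN1. BCL2L13, a mitochondrial relative, rose by 0.21 ± 0.046. BBC3 changed by -0.37 ± 0.098 (SE, edgeR adjusted p = 0.00278). Its estimates were -0.13 ± 0.14 with sgRNA1 and -0.54 ± 0.12 with sgRNA2. BOK, BCL2A1, BCL2L10 and BCL2L14 were under the filter, with at most 8 counts over the 4 libraries of either arm.

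All 12 genes listed as mitochondrial apoptosis machinery were tested. Of these, 2 were higher, 5 lower and 5 not called (63.0% of all genes were called), with a median of -0.02. CASP9, the initiator caspase of the apoptosome, rose from 16.7 ± 0.486 to 33.3 ± 1.24 CPM (SD, n = 4), a log2 fold change of 0.99 ± 0.068 (SE). The channel of the outer membrane VDAC1 (-0.50 ± 0.044) and the flavoprotein AIFM1 (-0.35 ± 0.050) fell. Adjusted p-values of the 3 genes by edgeR were 1.16e-10, 3.71e-09 and 4.42e-06.

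Of 18 genes for proteins that hold, phosphorylate or degrade members, 17 were tested, and 7 were higher, 4 lower and 6 not called (63.0% of all genes were called), with a median of 0.07. DYNLL2, the dynein light chain that binds BMF, rose by 0.81 ± 0.046 (SE) while BMF itself did not pass the test. PIM1, a kinase that phosphorylates BAD, rose by 0.82 ± 0.081, and AKT2, another such kinase, fell by 0.45 on the log2 scale. Kinases with the same substrate in the list therefore moved in different directions.

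Of 15 transcription regulators known to act on members, 14 were tested, and 8 were higher, 3 lower and 3 not called (31.8% of all genes were higher and 31.2% lower), with a median of 0.13. ATF3, a stress-induced factor of the ATF family, went from 38.4 ± 2.95 to 225 ± 53.2 CPM (SD, n = 4; log2 fold change 2.53 ± 0.12, SE). JUN rose by 1.75 ± 0.067 and STAT3 by 0.58 ± 0.048. These 4 lists were described by counts and medians and were not tested as sets.

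**Figure D4:**
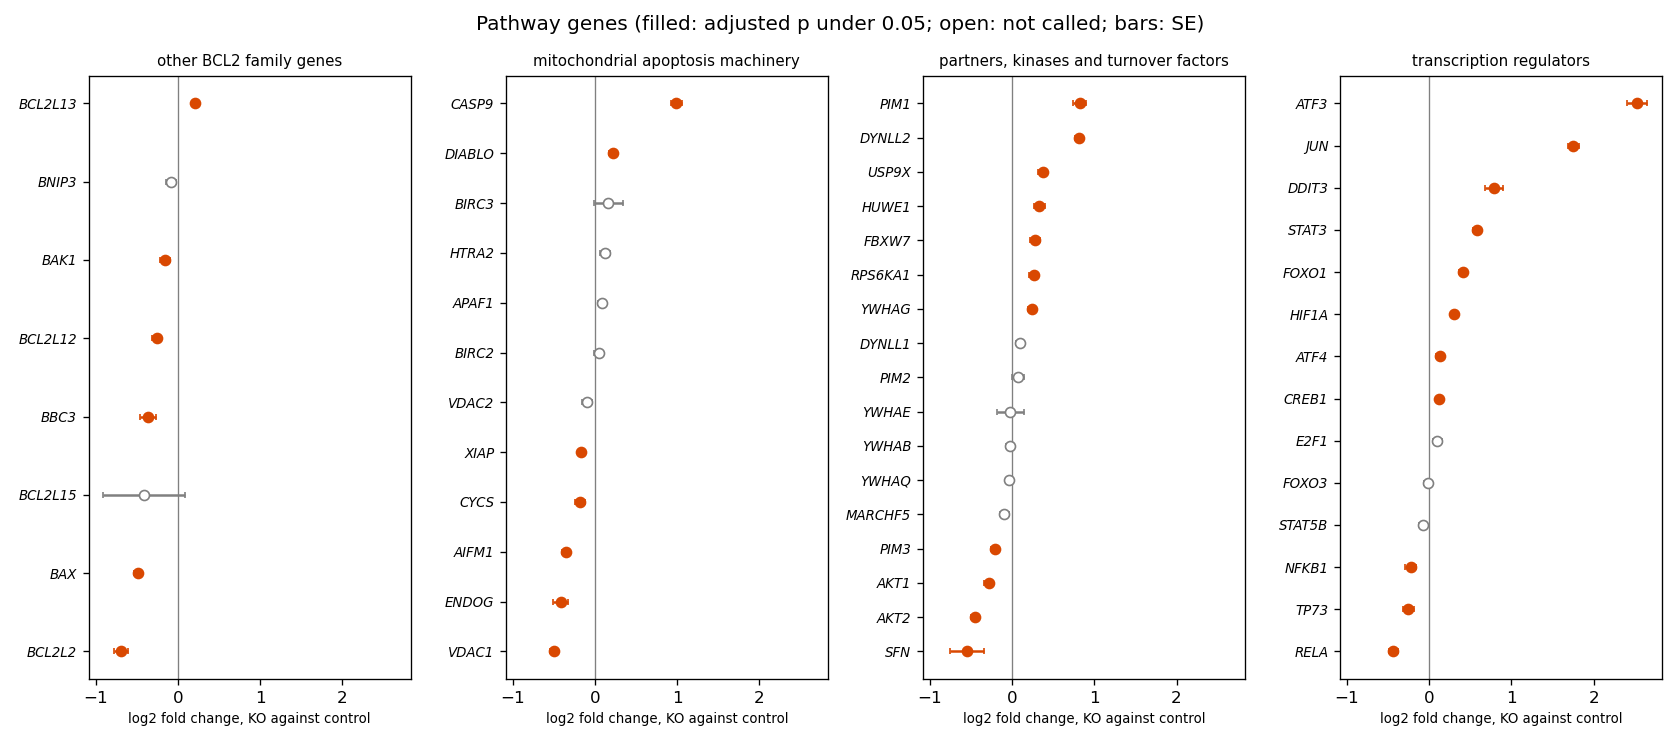
Log2 fold change of KO against control (x axis) with its SE for each tested gene of the 4 pathway lists, filled where the edgeR adjusted p was under 0.05. ATF3 and JUN lie farthest to the right, CASP9 stands apart from the other machinery genes, and BCL2L2 and BAX lie at the lower end of their list.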

How the data were processed

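Libraries were made with a stranded mRNA kit and read from both ends, per the labels' protocols. The authors deposited unnormalised counts per gene, made with featureCounts on hg38 per the submitters' processing notes. The aligner, annotation and strand setting were not given in the sources used here, so reads of overlapping genes may have been shared. Gene lengths came from the same tables, per the file headers.

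Of 28395 entries, 459 without a gene ID (0.0284 to 0.0425% of counts) were left out. Symbols came from RefSeq GRCh38.p14, which matched 27744 of 27936 genes, and exon overlaps from GENCODE v29. The filter was filterByExpr (minimum count 10, minimum total 15). The test was edgeR 4.0.16 with TMM factors on all 8 libraries and a guide term (5 residual degrees of freedom), and contrasts of the 4 group means (4 residual degrees of freedom) within and between guides. Single sums were tested by exact permutation. The fit was tested on simulated data with few changed genes, balanced in direction, and the same spread in all libraries. In these data 63.0% of genes were called, so the simulation checked the code and not the scaling or shared spread.

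The members and lists were chosen with earlier results of these data known. Named genes were the 10 members, KAT5, the 3 smallest p in each of 4 pathway lists, and any gene of these with no count in 1 arm, of which there were 0. BBC3 was named beside these, as a BH3-only gene that the choice of the set left out. The motifs and overlapping genes were chosen after values were seen. Replicate numbers were not used as pairs in the main fit, since the labels do not say what they mark. Correlations of same-numbered deviations between groups, over all genes tested, were -0.053 to 0.028. These deviations include counting noise, so they cannot show whether same-numbered libraries shared a culture or day. Alternatives were other scalings, filters, DESeq2 1.42.0, thinning, no guide term, a replicate block and leaving out each library.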

Additional observations from a re-analysis of the deposited data

Results flagged for a closer look

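BCL2L1 was checked with the other members for a library far from the rest of its arm, over 20 groups of 4 libraries, of which chance would mark about 1 in 20. It was marked in both arms. In the control arm, control sgRNA1 replicate 2 had 10.78 CPM, below the 15.7 to 16.8 of the other 3, and its gap took 0.846 of the range on the log2 scale. In the KO arm, KO sgRNA2 replicate 1 had 13.33 CPM beside 14.2 to 14.3 in the others, a gap of 0.937 of a narrow range. The control library is the shallowest, with 40 counts of BCL2L1, and the part of depth was not tested.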

How the results depend on the processing

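PMAIP1, BIK, BCL2L11 and MCL1 stayed higher and BID and HRK lower, all called, in each alternative run for KO against control, except HRK in 3 of 10 single draws of the thinning. BAD was not called after thinning to the smallest library (-0.065), nor by the median of 10 draws (-0.288), although it was called without each library in turn. BCL2L1 ranged from -0.21 to -0.10 over the leave-one-out fits and was called without control sgRNA1 replicate 2. The sign of BMF, never called, changed with library totals alone (0.027), with at least 1 CPM in at least 4 libraries (0.003), with DESeq2 (0.003), with the median of 10 draws (0.002) and without single libraries (-0.058 to 0.070). Within sgRNA1, BCL2L1 changed sign with library totals alone (0.034), the same stricter filter (0.006), DESeq2 (0.034) and without control sgRNA1 replicate 1 (0.403, in a leave-one-out range from -0.15 to 0.403), and BCL2 ranged from -0.059 to 0.193 with sgRNA1 and from -0.02 to 0.13 with sgRNA2 without single libraries. The number of members lower was 1 with each guide after thinning and by DESeq2, and without single libraries it was 1 to 3 with sgRNA1 and 1 to 4 with sgRNA2. A group left with 1 library was assumed to vary like the others, although the full groups did not vary alike. Chi-square per degree of freedom between the 2 libraries of a group was 7.96 in control sgRNA1 and 4.07 in KO sgRNA2. It was 1.93 in control sgRNA2 and 1.6 in KO sgRNA1. These values are not adjusted for depth, and the SEs within and between guides rest on a spread shared by all groups. The causes were not tested. With the replicate block, PMAIP1 had 1.09 and BID -0.86, and 4 members were called higher and 3 lower, so that the block changed no call. At the depth of the shallowest library, BAD kept its call in 3 and HRK in 7 of 10 draws. BIK, HRK and BCL2L1 had 6, 39 and 40 counts there, and BIK was called in all 10 draws.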
